A study of Homo sapiens with 5 samples.

Results

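The insulin-like growth factor (IGF) ligands, the IGF-binding proteins and the growth hormone receptor are described here in cells expressing an shRNA against BPTF, the largest subunit of the chromatin remodelling complex NURF. They are 10 genes, IGFBP1 to IGFBP7, IGF1, IGF2 and GHR, of 40263 genes listed in the count tables, chosen by name and matched to Ensembl identifiers through GENCODE 29. Total RNA was sequenced in 2 replicates of 501Mel shBPTF, a human melanoma line, and in 3 replicates of Hermes 3A shBPTF, a line of human melanocytes. Both carried lentiviral shBPTF and were collected after 5 days of puromycin at 3 µg/ml. The methods name 2 shBPTF constructs, and which of them was used for RNA-seq is not given in the sources used here. Both lines grew in foetal calf serum, and the Hermes 3A medium also held the phorbol ester TPA, cholera toxin, stem cell factor and endothelin-1. No control shRNA counts were analysed here, so that no value below is an effect of BPTF silencing. Cell line and culture medium cannot be told apart in a comparison of 501Mel with Hermes 3A, and neither can fewer cells and less RNA per cell. Nothing states whether the replicates are separate cultures, and p-values measure the spread between these libraries, which may be technical.

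IGF1 and IGF2 are secreted peptides that act through the receptor tyrosine kinase IGF1R, and growth hormone, acting through GHR and the kinase JAK2, is the main inducer of IGF1 in the liver. IGFBP1 to IGFBP6 bind IGFs with high affinity in the extracellular space, where they hold the ligand away from its receptor or deliver it when they are cleaved by proteases. IGFBP7 is a secreted relative with low affinity for IGFs, known from work on senescence and melanoma. Several IGFBPs are among the proteins that senescent cells secrete.

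The members lie on 7 chromosomes, and 4 of the IGFBP genes form 2 neighbouring pairs. On GRCh38 (GENCODE 29), IGFBP2 (ENSG00000115457, chr2:216632828-216664436, plus strand) is followed by IGFBP5 (ENSG00000115461, chr2:216672105-216695525, minus strand) after a gap of 7.67 kb. IGFBP1 (ENSG00000146678, chr7:45888357-45893668, plus strand) and IGFBP3 (ENSG00000146674, chr7:45912245-45921874, minus strand) are 18.6 kb apart. The others are IGFBP4 (ENSG00000141753, chr17:40443461-40457731, plus strand), IGFBP6 (ENSG00000167779, chr12:53097436-53102345, plus strand), IGFBP7 (ENSG00000163453, chr4:57030773-57110385, minus strand), IGF1 (ENSG00000017427, chr12:102395874-102481744, minus strand), IGF2 (ENSG00000167244, chr11:2129112-2149603, minus strand) and GHR (ENSG00000112964, chr5:42423777-42721878, plus strand).

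RefSeq promoters (GRCh38.p14) were found for 7 of the 10 genes, and those of the members with the widest differences between the cell lines are printed, IGFBP2 and IGFBP5, which were higher in 501Mel, and IGFBP3 and IGFBP4, which were listed at 0 there. Each is the 250 bases before the transcription start nearest to that of the principal GENCODE transcript, and capitals mark CG dinucleotides.
IGFBP2 (chr2:216633170-216633419, plus strand): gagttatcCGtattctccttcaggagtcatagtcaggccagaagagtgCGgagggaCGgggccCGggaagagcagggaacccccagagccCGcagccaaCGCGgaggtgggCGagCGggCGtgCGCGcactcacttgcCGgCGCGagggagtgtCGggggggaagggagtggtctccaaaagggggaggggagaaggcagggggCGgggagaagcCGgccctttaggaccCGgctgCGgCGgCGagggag
IGFBP5 (chr2:216695550-216695799, minus strand): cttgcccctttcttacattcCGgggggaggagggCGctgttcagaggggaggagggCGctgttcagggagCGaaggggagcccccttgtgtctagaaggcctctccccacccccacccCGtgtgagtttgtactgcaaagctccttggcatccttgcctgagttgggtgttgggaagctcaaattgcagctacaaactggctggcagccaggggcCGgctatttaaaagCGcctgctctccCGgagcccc
IGFBP3 (chr7:45921273-45921522, minus strand): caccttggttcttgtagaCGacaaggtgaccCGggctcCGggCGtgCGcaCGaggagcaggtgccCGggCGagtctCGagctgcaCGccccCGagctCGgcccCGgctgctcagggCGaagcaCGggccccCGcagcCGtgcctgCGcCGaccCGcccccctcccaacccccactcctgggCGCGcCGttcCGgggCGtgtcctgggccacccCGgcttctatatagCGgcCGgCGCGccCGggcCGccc
IGFBP4 (chr17:40443200-40443449, plus strand): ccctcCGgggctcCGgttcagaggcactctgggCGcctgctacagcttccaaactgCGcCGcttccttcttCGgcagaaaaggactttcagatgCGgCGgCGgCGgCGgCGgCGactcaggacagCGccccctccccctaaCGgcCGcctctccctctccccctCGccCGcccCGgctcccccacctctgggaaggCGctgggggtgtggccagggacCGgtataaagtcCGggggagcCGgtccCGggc
These windows held 22, 8, 32 and 24 CG dinucleotides in the order printed, against a median of 11 over 35116 promoters of the same length. A CG content above the median was thus found both in IGFBP2, which had counts in both lines, and in IGFBP3 and IGFBP4, which had none in 501Mel. The letters CACGTG, the E-box that MITF and other basic helix-loop-helix factors bind, were in none of the 16 listed promoters of the 7 genes (either strand), and in 6.34% of all promoters. CATGTG, searched on either strand, was in 2 of the 16, both of IGF1, and in 9.42% of all promoters. A match of letters is a description and not a bound site. IGFBP1, IGFBP7 and IGF2 had no entry.

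The libraries held 30073071 to 43032311 counts on genes, at which 3 counts, taken as the limit that a count of 0 allows in a library, correspond to 0.0697 to 0.0998 CPM (counts scaled to a library total of 1000000). Such limits cover counting error only. BPTF itself had 61.8 CPM ± 5.65 (SD, n = 2) in 501Mel and 50.5 CPM ± 4.30 (SD, n = 3) in Hermes 3A, which without controls does not check the silencing. The 8 pigment cell genes examined, among them MITF, PMEL and SOX10, were counted in every library and summed to 12982 to 20138 CPM in 501Mel and 32124 to 33129 CPM in Hermes 3A, mostly from PMEL and TYRP1. DCT, a melanin synthesis enzyme of this list, went the other way, with 1184 CPM ± 164 (SD, n = 2) in 501Mel and 9.76 CPM ± 2.96 (SD, n = 3) in Hermes 3A. MITF was also higher in both 501Mel libraries, at 702 and 854 CPM against 643 to 678 CPM in Hermes 3A. This smaller difference did not pass the test used below. Keratinocyte, endothelial and leukocyte markers were at low levels or not listed, with KRT10 as the exception in both lines and KDR, at 304 to 518 counts, in Hermes 3A. Markers of fibroblasts, cells that secrete several IGFBPs, summed to 3.43 to 16.6 CPM in 501Mel and 77.6 to 189 CPM in Hermes 3A, almost wholly from the collagen gene COL1A2 in the latter, where DCN had 1 or 2 counts. The 501Mel table listed 43 genes on 18 chromosomes at 0 in both libraries that had at least 100 counts in every Hermes 3A library. IGFBP3, IGFBP4 and IGFBP7 belong to these 43, and so does CDKN1A, a cell cycle inhibitor, with 31620 to 34023 counts in Hermes 3A. In the other direction 22 genes were at 0 in all Hermes 3A libraries with at least 100 counts in both of 501Mel. A 0 is therefore given as listed, and whether it reflects the cells or the making of the table was not tested. IGFBP1 was listed in the 501Mel table alone.

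As listed, the 2 cell lines had different IGF-binding protein transcripts as their main ones. IGFBP2 was the main IGFBP transcript in 501Mel, where IGFBP3, IGFBP4 and IGFBP7 were listed at 0. IGFBP7 was the main one in Hermes 3A, where IGFBP2 was near the lower end of the members. All 8 members that could be tested passed an adjusted p of 0.05 and a log2 difference of 1 in edgeR's quasi-likelihood test with Benjamini-Hochberg adjustment, 3 higher in 501Mel (IGFBP2, IGFBP5 and GHR) and 5 higher in Hermes 3A (IGFBP3, IGFBP4, IGFBP6, IGFBP7 and IGF1). Of all 17918 genes tested 34.3% did so, 17.2% higher in 501Mel and 17.1% higher in Hermes 3A, and 48.4% passed the adjusted p alone. IGFBP3, IGFBP4 and IGFBP7 passed the filter on low counts only through the cell line in which they were high and so had to differ, and the count of 8 is no support by itself. IGF2 did not pass the filter, and IGFBP1 could not be tested. The CPM of the 2 lines did not overlap for any of the 8 tested members, as for 69.9% of all genes tested.

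**Figure D1:**
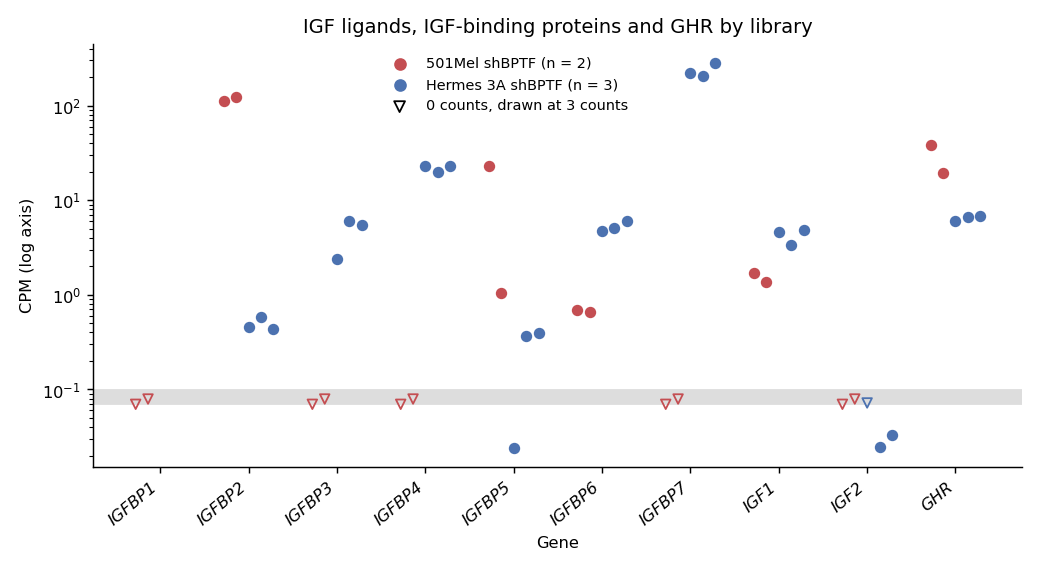
CPM of each member (x axis) in each shBPTF library on a log axis, red for 501Mel (n = 2) and blue for Hermes 3A (n = 3). Filled points are measured values, open triangles are counts of 0 drawn at the CPM of 3 counts, and the grey band spans that limit over the libraries. IGFBP2 lies above 100 CPM in 501Mel and under 1 CPM in Hermes 3A, while IGFBP7 is at 203 to 280 CPM in Hermes 3A and at 0 in 501Mel. IGFBP1 has no Hermes 3A points because it is not listed there.

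IGFBP2 binds IGF1 and IGF2, carries an RGD motif that integrins recognise and is known as a secreted marker of several tumour types. It had 4854 and 4624 counts in 501Mel, or 113 and 122 CPM, and 19, 24 and 13 counts in Hermes 3A, or 0.456, 0.587 and 0.432 CPM. Both 501Mel libraries were thus far above all of Hermes 3A, and neither group varied widely. The means were 117 CPM ± 6.61 (SD, n = 2) and 0.492 CPM ± 0.0835 (SD, n = 3), a 226-fold difference (log2 7.82 ± 0.20 SE, adjusted p = 4.93e-06 in edgeR). Leaving out any library or changing the test kept its log2 difference between 7.70 and 7.89.

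IGFBP5, the neighbour of IGFBP2, is a binding protein with strong affinity for extracellular matrix. Its count in 501Mel was 995 in replicate 1 and 40 in replicate 2, or 23.1 and 1.06 CPM. In Hermes 3A it had 1, 15 and 12 counts, or 0.0240, 0.367 and 0.399 CPM. The 501Mel libraries were both above Hermes 3A, but they differed from each other 21.9-fold in CPM. Of the 19331 genes with at least 10 counts over the 501Mel libraries, 0.285% were as far apart as IGFBP5 or farther, and the median gene differed by 0.32 on the log2 scale. The log2 difference between the lines was 5.48 ± 1.30 (SE, adjusted p = 0.0114 in edgeR). Without 501Mel replicate 1 it was 1.97 with an adjusted p of 0.196 and was no longer called, and without 501Mel replicate 2 it was 6.40. How far IGFBP5 exceeded its Hermes 3A level in 501Mel therefore rested on 1 library.

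**Figure D2:**
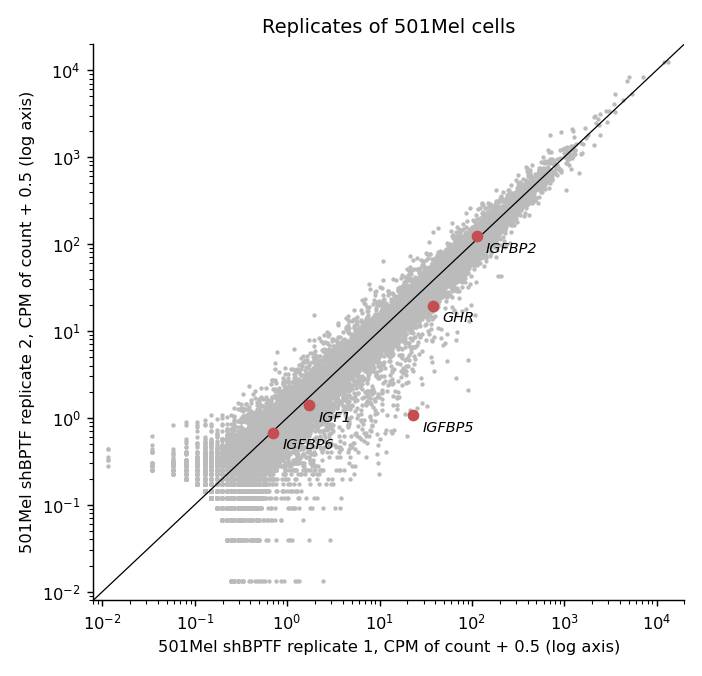
CPM of each gene in 501Mel shBPTF replicate 1 (x axis) and replicate 2 (y axis), computed from the count plus 0.5, on log axes, for genes with at least 10 counts over both. Grey points are genes, red points are the 5 members with counts in 501Mel, and the line marks equal values. IGFBP2, IGF1 and IGFBP6 lie near the line, GHR is 1.97-fold higher in replicate 1 and IGFBP5 is far below the line.

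Other genes were also higher in 501Mel replicate 1. More than 8-fold differences (log2 over 3) were found for 205 genes higher in replicate 1 and for 21 higher in replicate 2. They included HTRA1, a secreted serine protease able to cleave IGFBP5, with 640 and 39 counts. H19, the imprinted non-coding RNA next to IGF2, had 73 counts and 1 count. The collagen gene COL1A1 had 281 and 28 counts and COL3A1 had 52 and 3. Of the other fibroblast markers, LUM had 359 and 88, PDGFRB 11 and 3, DCN 7 and 4 and COL1A2 3 and 4. The part of these transcripts in the IGFBP5 value was not tested. IGFBP2 did not follow the genes higher in replicate 1, with a ratio of replicate 1 to replicate 2 of 0.923.

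IGFBP7 was the most abundant member in Hermes 3A. It had 9254, 8298 and 8428 counts, or 222, 203 and 280 CPM, against 0 counts in both 501Mel libraries. The mean of 235 CPM ± 40.2 (SD, n = 3) was at least 3157-fold above the mean limit of 3 counts per library in 501Mel. The test called it (adjusted p = 1.48e-05 in edgeR), but the fitted fold change of a gene at 0 depends on the prior count and is not given. IGFBP7 shares exonic sequence on the opposite strand with POLR2B, a subunit of RNA polymerase II, and with IGFBP7-AS1, and whether the counting used strand is not given in the sources used here. POLR2B had 14232 and 10431 counts in 501Mel and IGFBP7-AS1 0 and 3, so that counts on POLR2B did not appear as IGFBP7 there. In Hermes 3A IGFBP7-AS1 had 12, 24 and 10 counts.

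IGFBP4, which inhibits IGF action until it is cleaved by the protease PAPPA, had 949, 809 and 685 counts in Hermes 3A, or 22.8, 19.8 and 22.8 CPM, and 0 in both 501Mel libraries. Its mean of 21.8 CPM ± 1.72 (SD, n = 3) was at least 293-fold above the 501Mel limit (adjusted p = 3.71e-05 in edgeR). The Hermes 3A libraries hardly differed, by 1.15-fold from lowest to highest. IGFBP3, the main carrier of IGFs in serum and a gene that p53 can activate, had 100, 247 and 166 counts in Hermes 3A, or 2.40, 6.04 and 5.52 CPM, and again 0 in 501Mel. Replicate 1 was the low library here, with a 2.52-fold range. The mean of 4.65 CPM ± 1.97 (SD, n = 3) was at least 62.5-fold above the 501Mel limit (adjusted p = 0.000632 in edgeR).

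The neighbours of these 3 binding proteins were looked up after the values were seen. TOP2A, a topoisomerase of dividing cells 25.5 kb from IGFBP4, had 12128 and 6444 counts there, against 140 to 581 in Hermes 3A. NOA1, 52.0 kb from IGFBP7, had 2427 and 1557 counts in 501Mel and 2078 to 2326 in Hermes 3A. The gene nearest to IGFBP3 is IGFBP1, with 0 counts in both 501Mel libraries, and on its other side TNS3, a focal adhesion gene 1353 kb away, had 2304 and 1973 counts there. TNS4, on the other side of IGFBP4 at 18.1 kb, had 0 in 501Mel and at most 2 counts in Hermes 3A. ADGRL3, on the other side of IGFBP7 at 4091 kb, had 65 and 11 counts in 501Mel and at most 1 in Hermes 3A. Each of the 3 binding proteins thus had a neighbour with counts in 501Mel on 1 side at least. The nearest neighbours of IGFBP3 and IGFBP4, which are IGFBP1 and TNS4, had 0 there.

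IGFBP6, which prefers IGF2 over IGF1, was the binding protein higher in Hermes 3A that also had counts in 501Mel. It had 30 and 25 counts in 501Mel, or 0.697 and 0.660 CPM, and 195, 208 and 180 in Hermes 3A, or 4.68, 5.09 and 5.99 CPM. The groups were apart by more than their spread, with means of 0.679 CPM ± 0.0260 (SD, n = 2) and 5.25 CPM ± 0.667 (SD, n = 3). It was 8.04-fold lower in 501Mel (log2 -3.01 ± 0.37 SE, adjusted p = 0.000770 in edgeR). IGFBP1, a binding protein made mostly in the liver and regulated by insulin, had 0 counts in both 501Mel libraries, which allows up to 0.0697 and 0.0792 CPM.

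The higher levels of IGFBP3, IGFBP4, IGFBP6 and IGFBP7 in Hermes 3A stand beside the higher COL1A2 of that line, 2893 to 7359 counts against 3 and 4 in 501Mel. COL1A2 passed the filter on low counts only through Hermes 3A and so had to differ, as did IGFBP3, IGFBP4 and IGFBP7. None of the other fibroblast markers was called. LUM had 306, 46 and 29 counts in Hermes 3A and 359 and 88 in 501Mel, COL1A1 had 19, 43 and 16 against 281 and 28, and COL3A1 had 0, 4 and 9 against 52 and 3. PDGFRB had 0 to 14 counts in Hermes 3A and 11 and 3 in 501Mel, and DCN was too low to be tested. The part of such cells in the IGFBP values was not tested. Replicate 1, the lowest of the 3 Hermes 3A libraries for COL1A2, was also the lowest for IGFBP3 and IGFBP6 but not for IGFBP4 or IGFBP7, and it was the highest for LUM.

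Expressed as a share of all IGFBP transcripts as listed, each line was dominated by a single gene. In 501Mel the shares take the listed 0 of IGFBP3, IGFBP4 and IGFBP7 as it stands. Whether those 0 counts reflect the cells was not tested. Levels of different genes were compared per kb of the median transcript length in GENCODE 29, as CPM per kb. IGFBP2 made up 80.1% and 98.4% of the summed CPM per kb of the IGFBPs in 501Mel, and IGFBP7 made up 89.7%, 86.8% and 89.4% in Hermes 3A. The rest was mostly IGFBP5 in 501Mel, at 19.3% in replicate 1 and 1.00% in replicate 2. In Hermes 3A it was divided among IGFBP4 with 4.72% ± 0.554, IGFBP6 with 3.47% ± 0.277 and IGFBP3 with 2.74% ± 1.25 (SD, n = 3), and IGFBP2 took 0.282% ± 0.0841. With the union of all exons as the length, IGFBP2 and IGFBP7 kept mean shares of 91.4% and 89.0%. The summed level was less secure. It was 147 and 167 CPM per kb in 501Mel and 187 to 251 CPM per kb in Hermes 3A, a 1.35-fold higher mean in Hermes 3A, but the mean was 5.06-fold higher with the union exon length, and no statement on total IGFBP transcript can be drawn from it.

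**Figure D3:**
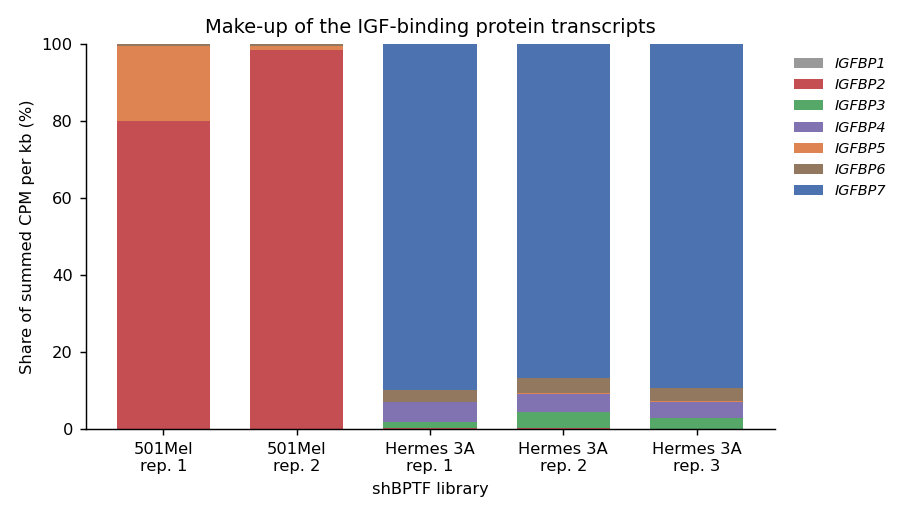
Share (%) of each IGFBP in the summed CPM per kb of IGFBP1 to IGFBP7 (y axis) in each shBPTF library (x axis), per median transcript length. IGFBP2 fills 80.1% and 98.4% of the 501Mel bars, with IGFBP5 as most of the remainder, and IGFBP7 fills 86.8% to 89.7% of the Hermes 3A bars. The 501Mel bars take IGFBP3, IGFBP4 and IGFBP7 at their listed 0.

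Over all 10 genes, the order of the levels per kb in 501Mel was IGFBP2 (139 CPM per kb ± 7.81), IGFBP5 (16.8 ± 21.7), GHR (6.49 ± 2.99), IGF1 (2.12 ± 0.335) and IGFBP6 (0.944 ± 0.0362; SD, n = 2), followed by the 5 genes at 0. IGFBP5 and GHR overlapped over the libraries and were not separated. In Hermes 3A it was IGFBP7 (188 CPM per kb ± 32.1), IGFBP4 (9.90 ± 0.783), IGFBP6 (7.30 ± 0.928), IGF1 (5.81 ± 1.04), IGFBP3 (5.75 ± 2.43), GHR (1.47 ± 0.0845), IGFBP2 (0.581 ± 0.0987), IGFBP5 (0.367 ± 0.290) and IGF2 (0.00630 ± 0.00564; SD, n = 3). Of these neighbours, IGFBP6, IGF1 and IGFBP3 overlapped, as did IGFBP2 and IGFBP5. The first and second places in Hermes 3A and the first place in 501Mel were the same with the union exon length, whereas 4 of the 10 genes in 501Mel changed places. In Hermes 3A 6 of the 9 genes kept their rank, and IGF1 moved from rank 4 to rank 6, behind IGFBP3 and GHR. The overlaps given here hold for the median transcript length.

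Of the ligands, IGF1 was counted in both lines and IGF2 in neither beyond single reads. IGF1 had 74 and 52 counts in 501Mel, or 1.72 and 1.37 CPM, and 190, 138 and 144 in Hermes 3A, or 4.56, 3.38 and 4.79 CPM. It was lower in both 501Mel libraries than in all of Hermes 3A, with means of 1.55 CPM ± 0.245 (SD, n = 2) and 4.24 CPM ± 0.758 (SD, n = 3). The difference was 2.87-fold (log2 -1.52 ± 0.37 SE, adjusted p = 0.0132 in edgeR). Without 501Mel replicate 2 its log2 difference was -1.40 and the adjusted p rose to 0.0628. IGF2 had 0 counts in both 501Mel libraries and 0, 1 and 1 in Hermes 3A, all under the limit of 3 counts, and no fold is given. A second identifier that GENCODE 29 also names IGF2, and the read-through INS-IGF2, were not in the count tables used here. H19 was also nearly without counts in Hermes 3A, with 0, 1 and 0.

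GHR, the receptor through which growth hormone induces IGF1, was higher in 501Mel. It had 1636 and 732 counts there, or 38.0 and 19.3 CPM, and 253, 271 and 204 in Hermes 3A, or 6.07, 6.63 and 6.78 CPM. The lower 501Mel library was still above every Hermes 3A library. The means were 28.7 CPM ± 13.2 (SD, n = 2) and 6.50 CPM ± 0.374 (SD, n = 3), a 4.21-fold difference (log2 2.07 ± 0.29 SE, adjusted p = 0.00141 in edgeR). GHR and IGF1 thus differed between the lines in opposite directions. The related prolactin receptor PRLR had 80 and 167 counts in 501Mel and 4, 2 and 1 in Hermes 3A, a log2 difference of 5.54 ± 0.65 (SE, adjusted p = 0.000676 in edgeR). It passed the filter on low counts only through 501Mel and so had to differ. It was higher in 501Mel replicate 2, unlike GHR, and its log2 difference was 4.75 without that library. The mediators downstream of GHR did not pass both thresholds in any of the 7 cases tested. Of these 2 passed the adjusted p alone, as did 48.4% of all genes tested. JAK2 had 21.3 CPM in 501Mel and 19.7 CPM in Hermes 3A. STAT5A had 50.4 and 80.0 CPM (log2 -0.73 ± 0.13 SE, adjusted p = 0.00353 in edgeR). SOCS2, a feedback inhibitor induced by growth hormone, had 29.5 and 42.9 CPM (log2 -0.60 ± 0.16 SE, adjusted p = 0.0172 in edgeR). Growth hormone genes had at most 1 count where they were listed.

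A list of 45 other genes of IGF and growth hormone signalling was examined, of which 43 were listed in at least 1 table and 37 tested. Of these 6 were higher in 501Mel, 6 were higher in Hermes 3A and 25 did not pass, a share near that of all genes. The median log2 difference of the 37 was -0.38, against 0.02 over all genes tested.

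**Figure D4:**
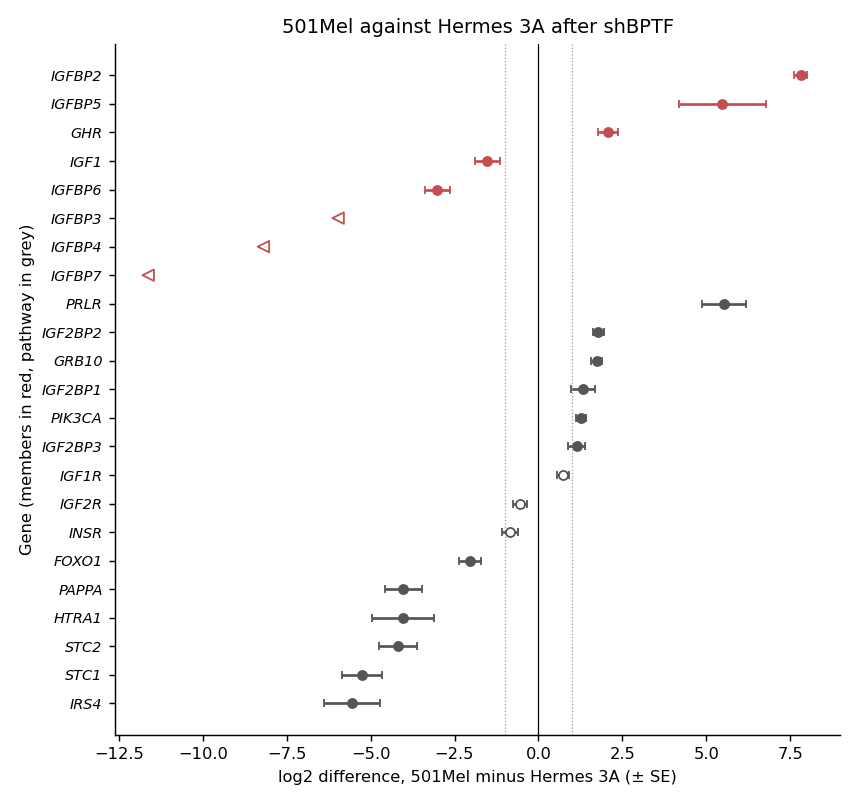
Log2 difference between 501Mel and Hermes 3A (x axis, positive where 501Mel was higher) for the 8 tested members in red and for named pathway genes in grey, with bars of 1 SE from edgeR. Filled points passed both thresholds, open points did not, dotted lines mark the log2 threshold of 1 and open triangles are bounds for genes at 0 in 501Mel. IGFBP2 at 7.82 and the bound of IGFBP7 at -11.62 are the ends of the range, and the 3 receptors lie within the dotted lines.

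None of the 3 receptors to which IGFs and insulin bind passed both thresholds. IGF1R, which transmits the IGF signal, had 10552 and 7157 counts in 501Mel and 4077, 5599 and 4284 in Hermes 3A, a log2 difference of 0.73 ± 0.19 (SE, adjusted p = 0.0158 in edgeR), below the threshold of 1. IGF2R, which takes IGF2 to lysosomes, had a log2 difference of -0.55 ± 0.20 (SE, adjusted p = 0.0573 in edgeR). INSR, the insulin receptor, had -0.85 ± 0.24 (SE, adjusted p = 0.0215 in edgeR). Both lines thus had transcripts of all 3 receptors. IGF1R was lower, and IGF2R and INSR were higher, in every Hermes 3A library than in either of 501Mel. Such an absence of overlap in CPM was found for 69.9% of all genes tested.

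Of 6 tested genes of IGFBP cleavage and the ternary IGF complex, 4 were called higher in Hermes 3A and none was called higher in 501Mel, against 17.1% and 17.2% of all genes tested. PAPPA and STC2 passed the filter on low counts only through Hermes 3A and so had to differ. PAPPA2, a relative of PAPPA, had 28 and 46 counts in 501Mel and 10, 21 and 13 in Hermes 3A and was not called (log2 1.18 ± 0.52 SE, adjusted p = 0.0977 in edgeR). IGFBPL1, an IGFBP-like gene, was not tested and had 43 and 4 counts in 501Mel and 1, 2 and 2 in Hermes 3A. PAPPA, the protease that cleaves IGFBP4, had 16 and 6 counts in 501Mel and 210, 133 and 127 in Hermes 3A (log2 -4.02 ± 0.54 SE, adjusted p = 0.00118 in edgeR). STC1 and STC2, stanniocalcins that inhibit PAPPA, were higher in the same line. STC1 had 56 and 14 counts in 501Mel and 1766, 1102 and 701 in Hermes 3A (log2 -5.27 ± 0.59 SE, adjusted p = 0.000547 in edgeR). STC2 had 3 and 5 counts in 501Mel and 90, 60 and 51 in Hermes 3A (log2 -4.18 ± 0.57 SE, adjusted p = 0.00124 in edgeR). PAPPA, STC1, STC2 and IGFBP4 thus had more counts in every Hermes 3A library than in either of 501Mel. The CPM of the 501Mel and Hermes 3A libraries did not overlap for 69.9% of all genes tested. Of these genes only STC1 passed the filter through both lines, and IGFBP4, like PAPPA and STC2, had to differ. HTRA1, which passed the filter through both lines too, had 640 and 39 counts in 501Mel and 5353, 4983 and 3754 in Hermes 3A (log2 -4.04 ± 0.92 SE, adjusted p = 0.00977 in edgeR). Its substrate IGFBP5 was higher in 501Mel, by a log2 difference of 5.48 that was 1.97 without 501Mel replicate 1. Within 501Mel both genes were higher in replicate 1 than in replicate 2. Without 501Mel replicate 1 the log2 difference of HTRA1 was -6.98, that of STC1 -6.44 and that of PAPPA -4.76, and without 501Mel replicate 2 those of HTRA1 and STC1 were -3.17 and -4.67, all still called.

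All 3 IGF2BP genes, whose products bind IGF2 mRNA and many other mRNAs, were called higher in 501Mel, where IGF2 itself had no counts. Of all genes tested 17.2% were called higher in 501Mel. IGF2BP2 differed by 1.79 ± 0.15 on the log2 scale (SE, adjusted p = 0.000169 in edgeR). IGF2BP1 differed by 1.33 ± 0.35 (SE, adjusted p = 0.0171), and its adjusted p was 0.0513 to 0.0650 without 501Mel replicate 1, 501Mel replicate 2, Hermes 3A replicate 2 or Hermes 3A replicate 3. IGF2BP3 differed by 1.14 ± 0.25 (SE, adjusted p = 0.00907), and by 0.92 without Hermes 3A replicate 2, under the threshold of 1.

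Of the 17 adaptors, kinases and their targets examined, 4 passed both thresholds and 13 did not, where 34.3% of all genes tested passed. GRB10, an adaptor that damps insulin and IGF signalling, was 3.32-fold higher in 501Mel, and PIK3CA, a catalytic subunit of phosphoinositide 3-kinase, was 2.40-fold higher. FOXO1, a transcription factor that AKT excludes from the nucleus, was 4.11-fold lower in 501Mel. IRS4, an insulin receptor substrate, had 2 and 0 counts in 501Mel and 41, 67 and 33 in Hermes 3A, a ratio of 50.6 with a 95% counting interval of 13.8 to 422. The interval pools the libraries of each line and covers counting error only, not the spread between replicates. IRS4 passed the filter on low counts only through Hermes 3A and so had to differ. Its fitted log2 difference of -5.54 was -4.73 without 501Mel replicate 2 and, with no count then left in 501Mel, -8.56 without replicate 1. IRS1 and IRS2, the widely expressed substrates, had values that overlapped between the lines, at 57.9 and 207 CPM in 501Mel and 40.8 and 170 CPM in Hermes 3A.

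The genes whose pattern was most like that of the members at either end were found by Pearson's r of log2(CPM + 1) over the 5 libraries. For IGFBP2 they were the non-coding RNA LINC00698, the WNT inhibitor gene APCDD1 and the non-coding RNA ARLNC1. For IGFBP7 they were CDKN1A, TRAPPC5, a subunit of a vesicle-tethering complex, and EDA2R, a receptor of the TNF receptor family. Each had an r of 1.00 after rounding, with 742 and 687 genes at 0.99 or more for IGFBP2 and IGFBP7, since any gene that separates the 2 lines and varies little within them has such a value. TRAPPC5 had 939 and 841 counts in 501Mel, where IGFBP7 had none.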

How the data were processed

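The RNA-seq samples were 2 libraries of 501Mel shBPTF and 3 of Hermes 3A shBPTF, prepared from total RNA with ribosomal RNA depletion and normalization by duplex-specific nuclease, which lowers very abundant transcripts. The values deposited by the authors are raw counts of reads on each gene. The submitters' processing notes name hg19, CASAVA 1.8, TopHat 1.4.1 and Bowtie 0.12.7. The counting program and its use of strand are not given in the sources used here. The tables list 37259 (501Mel) and 34033 (Hermes 3A) genes, and the 31029 in both were tested.

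CPM used the total count of each library (30073071 to 43032311). The contrast of 501Mel with Hermes 3A was fitted by quasi-likelihood in edgeR 4.0.16 under R 4.3.3, with TMM factors and filterByExpr. A call needed an adjusted p (Benjamini-Hochberg) below 0.05 and a log2 difference of at least 1 in size. The test was run on simulated counts with the same dispersion for every gene and 200 genes changed by a log2 of 2. That check does not cover genes at 0 in a whole line or replicates as far apart as those of IGFBP5. No replicates agreed within counting noise (chi-square per gene of 19.4 or more). Names, positions and lengths are those of GENCODE 29 (GRCh38), a different build from hg19. The alternatives were DESeq2 1.42.0, size factors, no filter, a replicate block and leaving out each library.

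The text names all members, IGF1R, IGF2R and INSR, up to 8 called pathway genes higher in each line, and the 3 genes most like the called member at each end, with marker lists and BPTF. Other genes were named after their values were seen. Members, lists and tests were chosen with earlier results of these data known.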

Additional observations from a re-analysis of the deposited data

How the results depend on the processing

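Of the 8 tested members, 6 kept their call and direction under all 9 alternative fits. IGFBP5 (log2 1.97 without 501Mel replicate 1) and IGF1 (log2 -1.40 without 501Mel replicate 2) were not called in 1 fit each, and no member was reversed. Over all genes 6145 were called, 6403 with DESeq2, 6789 without the filter and 4843 to 6483 when a library was left out. Adjusted p alone, with no threshold of size, called 21 pathway genes in place of 12. With the union exon length 6 of the 10 members kept their rank in 501Mel, and 6 of the 9 listed in Hermes 3A. The order of IGFBP5, GHR, IGF1 and IGFBP6 in 501Mel thus depends on the length used. So does that of IGF1, IGFBP3 and GHR in Hermes 3A.

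Whether libraries of the same replicate number share more than that number is not stated. Deviations of same-numbered libraries correlated by 0.102 and 0.137 over 2 pairs, and the opposite pairings gave -0.102 and -0.137. These values mirror each other because 501Mel had 2 libraries, so that they cannot decide whether the numbers mark a pairing. A fit with the replicate block called 5646 genes, all 8 members among them. Its adjusted p in edgeR was 0.0416 for IGF1 and 0.0470 for IGFBP5.

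Groups of 2 and 3 libraries limit every test, counts of 0 bound a level only to 3 counts, and without control libraries no value tells what BPTF silencing did. TMM in place of the total count moved no member's level by more than its SD.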
